A study of Homo sapiens with 6 samples.

Results

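The 48 genes described here build or drive the mitotic spindle and the kinetochore, or switch mitosis on and off, and they were taken as a list of named genes from the 60480 gene identifiers of a count table of OE-19 cells. OE-19 is an established cell line from an adenocarcinoma of the esophagogastric junction (AEG). It was grown in RPMI1640 medium with fetal bovine serum and penicillin/streptomycin. Polyadenylated RNA was sequenced in 3 libraries of control cells and in 3 libraries of cells with knockdown of IGF2BP3 (shIGF2BP3, called IGF2BP3 KD below). IGF2BP3 is an RNA-binding protein that reads m6A marks. The control libraries are titled shControl and described as Puro, and the labels do not say more about what these cells carry. All 6 libraries come from the same line, the hairpin used in each shIGF2BP3 library is not named in the labels, and the labels do not say that the 3 libraries of a group came from separate cultures, so that p-values measure the spread between these libraries, which may be technical. The libraries held 53424071 to 69989087 counted reads. All 48 genes passed the filter on low counts, with 471 to 53590 reads per gene and library.

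At the onset of mitosis, a kinetochore is assembled on each centromere: the inner proteins of the CENP family sit on chromatin that contains CENPA, and the outer complex around NDC80 grips the ends of microtubules. The kinases AURKB, BUB1, TTK and PLK1 correct wrong attachments, and the checkpoint proteins MAD2L1, BUB1B and BUB3 hold back CDC20 and the anaphase-promoting complex until every chromosome is attached. Kinesins move chromosomes and slide microtubules, and the central spindle then directs the cut between the daughter cells. Most of these genes are transcribed mainly in G2 and M phase, so their level in a culture follows both how many cells are in these phases and how much RNA each cell holds. In bulk RNA these cannot be told apart.

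IGF2BP3 itself was at 108, 106 and 112 CPM (read counts as a share of the library, scaled by the TMM method) in the control libraries and at 14.4, 12.8 and 12.6 CPM in the IGF2BP3 KD libraries. The log2 fold change was -3.03 with a standard error (SE) of 0.06 (edgeR quasi-likelihood test with Benjamini-Hochberg adjustment, adjusted p = 3.1e-10). Epithelial markers (EPCAM, CDH1, KRT8, KRT18, KRT19, ERBB2, CLDN4) were all detected, and KRT8 and KRT18 were lower and EPCAM and ERBB2 higher after IGF2BP3 KD. The summed level of these markers was 18490 to 19480 CPM in control and 20180 to 20640 CPM in IGF2BP3 KD libraries. Most of it was ERBB2, at 12480 to 13400 CPM in control and 14120 to 14650 CPM in IGF2BP3 KD libraries. The 6 fibroblast markers summed to 21.2 to 24.6 CPM against 29.9 to 34.4 CPM with COL1A1 higher and COL1A2 and LUM at 0, the 4 endothelial markers to at most 0.563 CPM in a library, and the 6 leukocyte markers to 2505 to 2733 CPM against 2542 to 2615 CPM, almost all of it LYZ, with CD68 higher and CD3E and HLA-DRA at 0. The part of these markers in the results below was not tested.

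Promoters of G2 and M phase genes often carry a cell cycle genes homology region (CHR), which is bound by MuvB complexes, together with CCAAT boxes, which are bound by NF-Y. RefSeq promoters (GRCh38.p14, 250 bases before to 50 bases after the gene start) were found for 39 of the 48 genes. TTK, TPX2, CENPM, UBE2C, BUB3, AURKA, BIRC5, CENPH and KNL1 had no entry. On either strand, the CHR words TTTGAA or TTTAAA were present in 31 of the 39 promoters (79.5%), against 24.3% of all 27305 promoters and 16.1% of the 11957 promoters of tested genes. CCAAT was also present in 31 of 39 (79.5%), against 35.7% of all promoters and 36.3% of those of tested genes. In 26 of 39 promoters (66.7%) a CHR word lay within 50 bases of the start, compared with 7.75% of all promoters, and in 20 (51.3%, all promoters 3.07%) this was joined by a CCAAT word. The matches of both kinds shared a base in 2 of the 39 promoters. The E2F words TTTCCCGC, TTTGGCGC and TTTCGCGC were rare, in 3 promoters (7.69%, all promoters 2.79%), those of CENPU, CENPA and KIF15.

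The 6 promoters below, from 100 bases before to 50 bases after the start and in the direction of transcription, show these words in 4 genes that were lower after IGF2BP3 KD (BUB1B, KIF4A, PRC1 and KIF18A) and in 2 that were not called (KIF11 and PLK1). Capitals mark the CHR words and CCAAT, on either strand.
BUB1B (chr15:40160969-40161118, plus strand): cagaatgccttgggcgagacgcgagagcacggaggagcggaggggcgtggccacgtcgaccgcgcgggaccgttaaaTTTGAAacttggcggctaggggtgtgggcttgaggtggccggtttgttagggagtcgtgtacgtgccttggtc
KIF4A (chrX:70290004-70290153, plus strand): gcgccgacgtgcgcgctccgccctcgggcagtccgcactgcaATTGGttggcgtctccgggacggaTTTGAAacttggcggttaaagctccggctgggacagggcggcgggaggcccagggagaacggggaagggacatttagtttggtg
PRC1 (chr15:90994486-90994635, minus strand): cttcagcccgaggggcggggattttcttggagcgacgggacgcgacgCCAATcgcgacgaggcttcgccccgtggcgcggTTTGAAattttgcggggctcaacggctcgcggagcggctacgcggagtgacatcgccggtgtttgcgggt
KIF18A (chr11:28108107-28108256, minus strand): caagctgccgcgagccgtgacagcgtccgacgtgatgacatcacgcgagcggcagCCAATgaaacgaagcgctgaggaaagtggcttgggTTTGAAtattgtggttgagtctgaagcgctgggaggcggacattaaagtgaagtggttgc
KIF11 (chr10:92593030-92593179, plus strand): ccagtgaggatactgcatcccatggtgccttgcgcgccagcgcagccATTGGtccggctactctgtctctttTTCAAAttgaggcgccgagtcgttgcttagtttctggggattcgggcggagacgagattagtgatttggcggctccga
PLK1 (chr16:23678789-23678938, plus strand): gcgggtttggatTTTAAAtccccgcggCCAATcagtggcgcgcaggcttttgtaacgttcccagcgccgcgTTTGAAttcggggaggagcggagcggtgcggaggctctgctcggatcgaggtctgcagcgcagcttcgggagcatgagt
In KIF4A the CHR word starts at position -34 and the CCAAT word at -58 relative to the start, in PRC1 at -20 and -53, in KIF18A at -10 and -45, and in KIF11, which was not called, at -28 and -53. BUB1B has a CHR word at -23 and no CCAAT word in the window. The same words at like spacing therefore stood before genes that were called lower and before genes that were not.

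**Figure D1:**
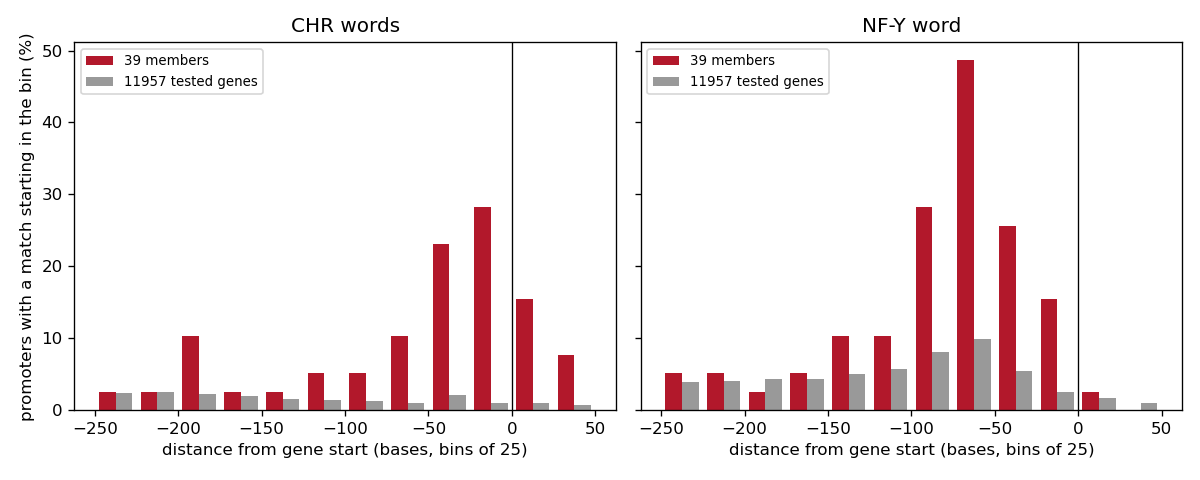
Share of promoters (percent, vertical axis) with a CHR word (left) or with CCAAT, the word bound by NF-Y (right), starting in each bin of 25 bases along the distance from the gene start (horizontal axis), for the 39 members with a promoter entry (red) and all 11957 tested genes with one (grey). Members peak in the 25 bases before the start for CHR words (28.2%, tested genes 1.05%) and between 75 and 50 bases before it for CCAAT (48.7%, tested genes 9.95%).

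Genes with and without these words were lower in similar shares, and the difference between them was not tested. With a CHR word within 50 bases of the start, 9 of 26 genes were lower after IGF2BP3 KD and the median log2 fold change was -0.08. Without one, 4 of 13 were lower with a median of -0.11. With CCAAT, 10 of 31 genes were lower, and without it 3 of 8. With both a CHR word near the start and CCAAT, 6 of 20 were lower. Among the 9 genes with no promoter entry, 3 were lower. These counts stand beside 10.6% lower over all tested genes and 19.3% at 10 CPM or more. Among all other tested genes with a CHR word near the start and CCAAT, 35 of 215 were lower (16.3%) and 24 higher, and of the tested genes whose promoters lack this pair 1593 of 11729 were lower (13.6%).

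Across the 48 genes, 16 were called lower (33.3%) and 0 called higher after IGF2BP3 KD at an adjusted p under 0.05 (edgeR). The background over the 19778 tested genes was 10.6% called lower and 9.87% called higher. At an unadjusted p under 0.05, 20 members were lower and 0 higher, and DESeq2 also called 0 higher. Because the members are well expressed, a background of like level was added after the values were seen: among genes whose mean level reached 10 CPM, 19.3% were lower and 16.5% higher. The decreases were small, with a median log2 fold change of -0.09 over the 48 genes against 0.01 over all tested genes. 37 genes lay below 0 and 11 above. In 25 genes all 3 IGF2BP3 KD values were below all 3 control values, as in 17.8% of all tested genes and 27.9% of those at 10 CPM or more. In 2 genes, PLK1 and CENPA, they were all above, as in 18.0% of all tested genes and 24.8% of those at 10 CPM or more, and neither was called. An exact permutation test of 3 against 3 libraries cannot give a p below 0.1 for a single gene, so that the calls rest on the fit across all genes.

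The summed level of the 48 genes was 5825, 5649 and 5665 CPM in control and 5349, 5281 and 5263 CPM in IGF2BP3 KD libraries, without overlap. Of the 48 genes, 37, 39 and 40 were below their control mean in IGF2BP3 KD libraries 1, 2 and 3. In control libraries 1, 2 and 3 themselves, 13, 31 and 28 genes were below it. The like count over all tested genes was not made. The 16 called genes summed to 2328 to 2355 CPM in control and 1997 to 2041 CPM in IGF2BP3 KD libraries, a difference that follows from their being chosen as lower, and the other 32 to 3315 to 3470 CPM and 3251 to 3308 CPM.

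**Figure D2:**
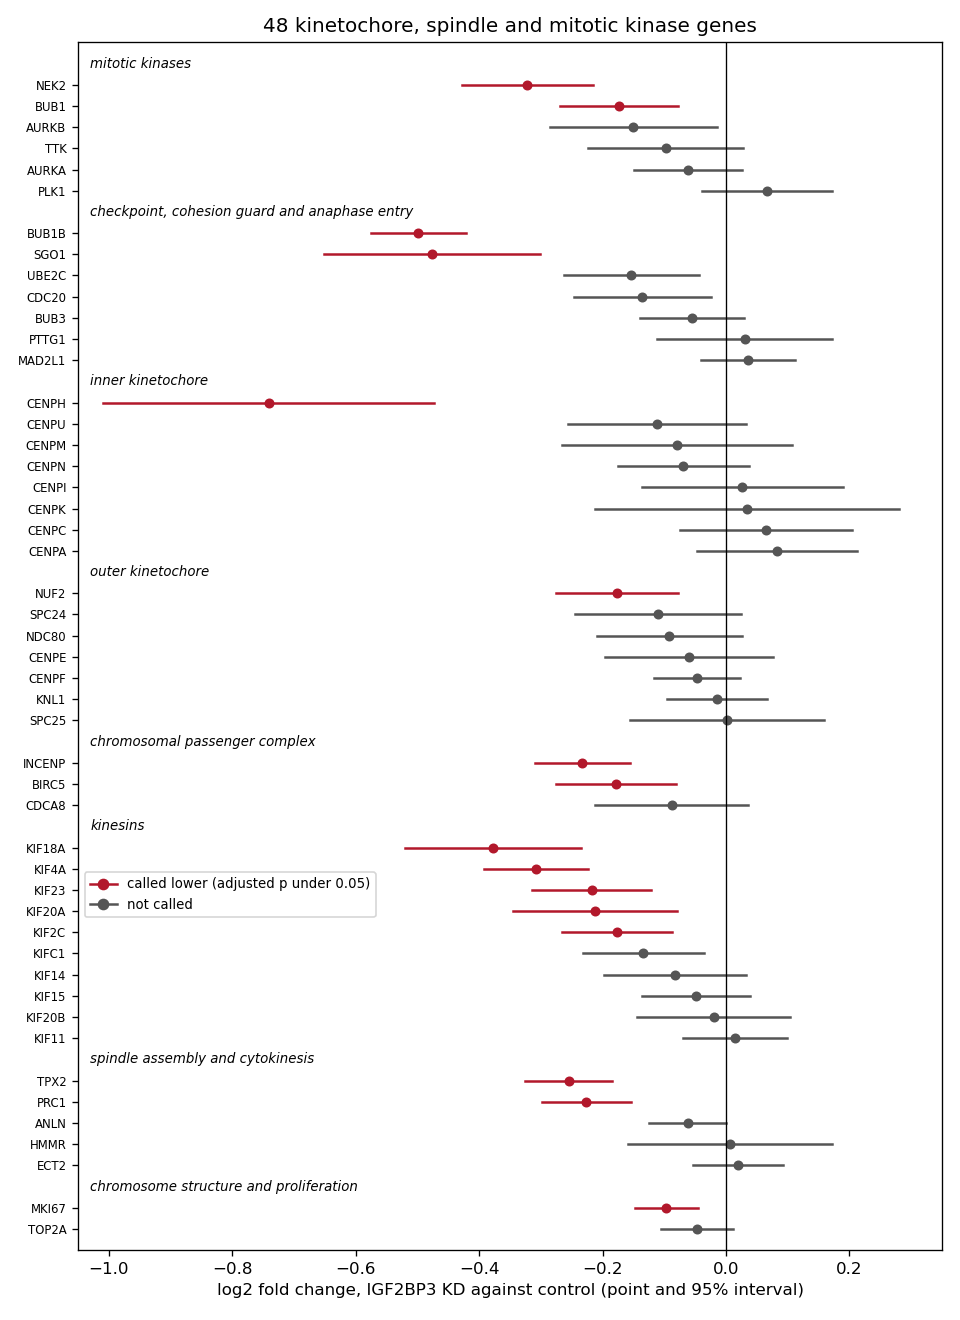
Log2 fold change (horizontal axis, IGF2BP3 KD against control, n = 3 libraries each) of the 48 genes, grouped by role, with points for the estimate and lines for the 95% interval of the edgeR fit. The 16 genes called lower are red; the largest decrease is that of CENPH at -0.74, and the highest estimate that of CENPA at 0.08.

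The role groups below hold 2 to 10 genes each, so their shares rest on few genes. Each share stands beside 10.6% lower over all tested genes and 19.3% at 10 CPM or more. Among the 6 mitotic kinases, NEK2 and BUB1 were lower and the median log2 fold change was -0.12. NEK2, a kinase that frees the centrosomes from each other before mitosis, was at 75.3, 70.3 and 73.8 CPM in control and at 60.1, 59.3 and 56.0 CPM in IGF2BP3 KD libraries, which lie well apart (log2 fold change -0.32, SE 0.05, adjusted p = 0.0007, edgeR). BUB1, which marks centromeric chromatin for the shugoshins and recruits checkpoint proteins, was at 75.9, 73.2 and 76.4 CPM against 68.7, 65.7 and 65.5 CPM (log2 fold change -0.17, SE 0.04, adjusted p = 0.015, edgeR). The call of BUB1 was lost without control library 3, IGF2BP3 KD library 2 or IGF2BP3 KD library 3, with adjusted p up to 0.062. The Aurora kinases, which act at the spindle poles (AURKA) and at the centromere (AURKB), had log2 fold changes of -0.06 and -0.15 and were not called. AURKB was at 38.5, 42.1 and 44.5 CPM in control and 37.4, 37.4 and 38.0 CPM in IGF2BP3 KD libraries, so that control library 1 lay next to the IGF2BP3 KD values. AURKB was called lower without that library, at -0.21 (adjusted p = 0.035, edgeR), but in no other fit that leaves out 1 library. Over these fits its log2 fold change ran from -0.21 to -0.10, with adjusted p up to 0.35 (edgeR). TTK, which starts checkpoint signalling, was at -0.10 (95% interval -0.22 to 0.03). PLK1, the kinase of mitotic entry and spindle assembly, had 54.1, 54.7 and 53.2 CPM in control against 56.1, 54.7 and 58.7 CPM in IGF2BP3 KD libraries, and its 95% interval was -0.04 to 0.17.

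In the group of checkpoint, cohesion and anaphase genes, 2 of 7 were lower, and both fell by more than most other members. BUB1B encodes BubR1, a part of the mitotic checkpoint complex that inhibits CDC20. It was at 158, 149 and 155 CPM in control and at 109, 107 and 111 CPM in IGF2BP3 KD libraries, 70.8% of the control mean (log2 fold change -0.50, SE 0.04, adjusted p = 3.2e-06, edgeR), and had the lowest adjusted p among the 48 genes. Its exons share 457 bases with those of PAK6 and the readthrough gene BUB1B-PAK6, for which 331 to 378 and 0 to 2 reads were counted per library. SGO1, the shugoshin that protects centromeric cohesion until anaphase, was at 21.7, 22.2 and 21.2 CPM against 14.0, 16.7 and 16.1 CPM (log2 fold change -0.48, SE 0.08, adjusted p = 0.0014, edgeR). It shares 593 exon bases with SGO1-AS1 on the opposite strand, which had 0 to 15 reads per library.

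The partners of BUB1B did not move with it by a comparable amount. MAD2L1 (103 ± 1.83 CPM in control and 106 ± 1.07 CPM in IGF2BP3 KD libraries; SD, n = 3) and BUB3 (110 ± 3.78 and 106 ± 1.97 CPM) had 95% intervals of -0.04 to 0.11 and -0.14 to 0.03 for the log2 fold change. CDC20, the target of the checkpoint, and UBE2C, the ubiquitin-conjugating enzyme that works with the anaphase-promoting complex, were not called. UBE2C was at 71.8, 65.4 and 66.4 CPM against 59.3, 61.6 and 62.1 CPM, and CDC20 at 61.1, 66.6 and 61.0 CPM against 57.1, 56.2 and 58.5 CPM. Both sets of values are apart, with log2 fold changes of -0.15 (adjusted p = 0.051) and -0.14 (adjusted p = 0.086) in edgeR. Neither gene was called in any edgeR fit that leaves out 1 library, with adjusted p up to 0.16 for UBE2C and 0.27 for CDC20. PTTG1, the securin that keeps separase inactive, was at 0.03. Its copies PTTG2 and PTTG3P held at most 2 reads in a library.

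Of the 8 inner kinetochore genes, CENPH alone was lower (12.5%), and the median log2 fold change was -0.02. That share is near the background of 10.6% over all tested genes and below the 19.3% of those at 10 CPM or more. CENPH, a subunit of the centromere-bound network (chromosome 5, 69189574 to 69210357, plus strand, hg38), had the largest fold change of the 48 genes and the largest SE. It was at 18.6, 13.4 and 14.2 CPM in control and at 8.73, 9.63 and 9.28 CPM in IGF2BP3 KD libraries, a fall to 59.8% of the control mean (log2 fold change -0.74, SE 0.12, adjusted p = 0.0013, edgeR). The control values are spread by more than those of IGF2BP3 KD, and without any 1 library the estimate ran from -0.83 to -0.59 and was called each time. CENPK and CENPM, which belong to the same network as CENPH, had log2 fold changes of 0.03 (SE 0.11) and -0.08 (SE 0.08), and CENPI, CENPN and CENPU had 0.03, -0.07 and -0.11, none of them called. CENPC, which links the network to the outer kinetochore, was at 0.06 (95% interval -0.08 to 0.20). CENPA, the histone H3 variant that defines the centromere, was at 31.4, 32.2 and 29.2 CPM in control and at 32.4, 32.5 and 33.5 CPM in IGF2BP3 KD libraries, barely apart (log2 fold change 0.08, SE 0.06, adjusted p = 0.39, edgeR).

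Of the 7 outer kinetochore genes, NUF2 was lower (14.3%), and the median was -0.06. The backgrounds were 10.6% over all tested genes and 19.3% at 10 CPM or more. NUF2, SPC24, SPC25 and NDC80 encode the 4 subunits of the NDC80 complex, the main microtubule anchor of the kinetochore. NUF2 was at 76.4, 71.1 and 74.6 CPM in control and at 64.3, 66.8 and 65.4 CPM in IGF2BP3 KD libraries (log2 fold change -0.18, SE 0.04, adjusted p = 0.016, edgeR), and the call was lost without control library 3 or IGF2BP3 KD library 1 (adjusted p = 0.058 and 0.060). NDC80 (-0.09, SE 0.05), SPC24 (-0.11, SE 0.06) and SPC25 (0.00, SE 0.07) were not called, and the differences between the subunits were not tested. Per kb of exon, the control level of NUF2 was 22.0, that of NDC80 17.1, that of SPC25 15.4 and that of SPC24 10.1 CPM per kb. KNL1, the scaffold for BUB1 and BUB1B, was at 174, 167 and 168 CPM against 176, 165 and 163 CPM, with a 95% interval of -0.10 to 0.07. CENPE, the kinesin that carries chromosomes to the spindle equator, and CENPF, a large protein of the outer corona, had log2 fold changes of -0.06 and -0.05.

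In the chromosomal passenger complex, which brings AURKB to centromeres and later to the central spindle, 2 of 3 genes were lower. INCENP, the scaffold that activates AURKB, was at 103, 106 and 106 CPM in control and at 89.8, 88.9 and 89.7 CPM in IGF2BP3 KD libraries, with little spread within either group (log2 fold change -0.23, SE 0.04, adjusted p = 0.0008, edgeR). BIRC5 (survivin) was at 106, 107 and 111 CPM against 91.6, 94.5 and 101 CPM (log2 fold change -0.18, SE 0.04, adjusted p = 0.014, edgeR). Without control library 3, IGF2BP3 KD library 1 or IGF2BP3 KD library 2 the call of BIRC5 was lost, with adjusted p up to 0.061. CDCA8 (borealin) was at 58.8 ± 3.78 CPM in control and at 55.4 ± 1.76 CPM in IGF2BP3 KD libraries (SD, n = 3), with overlapping values.

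The kinesins, the largest role group, held the most calls, 5 of 10 (50%), and their median log2 fold change was -0.16. The share was larger in the passenger complex (66.7% of 3 genes). The backgrounds were 10.6% of all tested genes and 19.3% of those at 10 CPM or more. KIF18A, which dampens chromosome oscillations at the spindle equator, was at 41.1, 35.8 and 37.2 CPM in control and at 28.4, 30.1 and 29.4 CPM in IGF2BP3 KD libraries (log2 fold change -0.38, SE 0.06, adjusted p = 0.0017, edgeR). KIF4A, a chromokinesin that also limits the length of the central spindle, was at 190, 181 and 193 CPM against 158, 149 and 147 CPM (log2 fold change -0.31, SE 0.04, adjusted p = 0.0002, edgeR). Its near-identical copy KIF4B held 14 to 24 reads in a library. For both kinesins the lowest control library was above the highest IGF2BP3 KD library by more than the range within either group.

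KIF23, the kinesin subunit of centralspindlin, was at 99.2, 90.5 and 94.98 CPM against 83.2, 81.0 and 80.5 CPM, and KIF2C, which removes tubulin from microtubule ends at centromeres, at 93.3, 91.8 and 93.3 CPM against 83.5, 84.0 and 78.8 CPM. Their log2 fold changes were -0.22 (adjusted p = 0.0044) and -0.18 (adjusted p = 0.0095) in edgeR, and both kept the call without any 1 library. KIF20A, which brings the passenger complex to the central spindle, was at 60.3, 63.7 and 70.3 CPM against 57.3, 53.7 and 56.6 CPM, with the lowest control value close to the highest IGF2BP3 KD value (log2 fold change -0.21, SE 0.06, adjusted p = 0.028, edgeR). Its call was the least firm of the 16: it was lost in 5 of the 6 fits that leave out 1 library, and remained without control library 1 alone. KIF20A also shares 206 exon bases on the opposite strand with BRD8 and CDC23.

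KIFC1, a minus-end motor that focuses spindle poles, was at 94.6, 97.6 and 101 CPM against 88.6, 85.6 and 93.2 CPM and missed the threshold (log2 fold change -0.13, adjusted p = 0.057, edgeR). KIF14, KIF15 and KIF20B had log2 fold changes of -0.08, -0.05 and -0.02. KIF11 (Eg5), the motor that pushes the spindle poles apart, was at 128, 122 and 119 CPM in control and at 126, 125 and 121 CPM in IGF2BP3 KD libraries, and its 95% interval was -0.07 to 0.10.

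**Figure D3:**
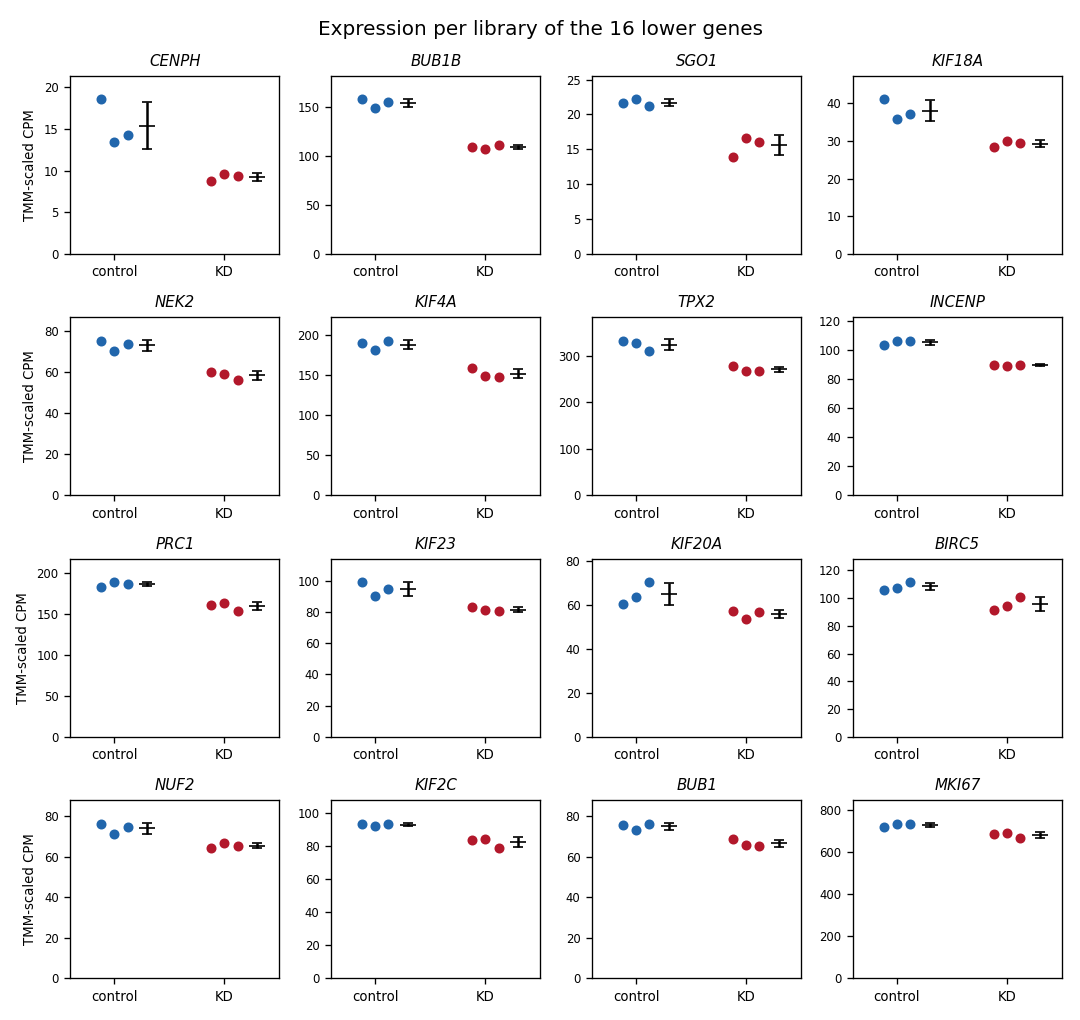
TMM-scaled CPM (vertical axes, each from 0) in each library for the 16 genes called lower, ordered by fold change from CENPH to MKI67, with control libraries in blue and IGF2BP3 KD libraries in red; bars give the mean ± SD of n = 3. In each of the 16 panels all 3 IGF2BP3 KD values lie below all 3 control values; the IGF2BP3 KD mean of CENPH is 59.8% and that of MKI67 93.5% of its control mean.

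Of the 5 genes of spindle assembly and cytokinesis, TPX2 and PRC1 were lower. TPX2, which activates AURKA and nucleates microtubules near chromosomes, was at 333, 329 and 310 CPM in control and at 278, 268 and 268 CPM in IGF2BP3 KD libraries (log2 fold change -0.26, SE 0.03, adjusted p = 0.0002, edgeR). At 89.8 CPM per kb of exon in control it was the second most abundant member after TOP2A. PRC1, which bundles the antiparallel microtubules of the central spindle together with KIF4A, was at 183, 188 and 186 CPM against 161, 163 and 154 CPM (log2 fold change -0.23, SE 0.03, adjusted p = 0.0006, edgeR). PRC1 shares 3181 exon bases on its own strand with a readthrough gene listed as AC068831.18 (ENSG00000284946), to which 7948 to 11887 reads per library were assigned and which was lower as well (log2 fold change -0.21, adjusted p = 0.015, edgeR), and 1892 bases with PRC1-AS1 on the opposite strand, so that its level is uncertain. ECT2, the exchange factor that starts furrow ingression, was at 303, 285 and 288 CPM against 304, 287 and 298 CPM (95% interval -0.05 to 0.09). ANLN, a scaffold of the contractile ring, was at 190 ± 1.60 CPM and 182 ± 1.60 CPM (SD, n = 3), apart by little and not called (log2 fold change -0.06, adjusted p = 0.16, edgeR). HMMR, a microtubule-binding protein of the spindle poles, was at 0.01 with a 95% interval of -0.16 to 0.17.

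TOP2A, the topoisomerase that untangles sister chromatids, was the most abundant of the 48 genes at 118 CPM per kb of exon in control. It was at 782, 740 and 736 CPM in control and at 727, 725 and 734 CPM in IGF2BP3 KD libraries, a narrow gap next to the spread in control (log2 fold change -0.05, SE 0.03, adjusted p = 0.27, edgeR). MKI67, the coat protein of mitotic chromosomes and common marker of proliferation, was at 721, 735 and 732 CPM against 685, 692 and 668 CPM (log2 fold change -0.10, SE 0.02, adjusted p = 0.012, edgeR). It is the smallest change among the 16 called genes, and without IGF2BP3 KD library 3 its adjusted p was 0.052.

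Of the 32 genes not called, 27 had a 95% interval of the log2 fold change within 0.25 of 0, and over all 32 the intervals ran from no lower than -0.29 to no higher than 0.28. The called genes had a median control level of 93.8 CPM and the others of 61.8 CPM. The median SE over the 48 genes was 0.05. For 32 of the 48 genes, and for 8 of the 16 called lower, no annotated exon of another gene overlaps theirs in GENCODE v44. Where exons overlap on opposite strands, reads may have been split between the genes, since the strand setting used in counting is not given in the sources used here.

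The 3′ UTR words GATTACT and ACACATC were looked up because earlier work on these data had singled them out, so their presence is a description and no independent evidence. GATTACT occurs in the 3′ UTR of 2 of the 48 genes, NEK2 and SGO1, both of which were lower. The sites are shown in the sense of the mRNA, from hg38 with GENCODE v44, with the word in capitals.
NEK2 (chr1:211663152-211663180, minus strand): atcctgtgtgtGATTACTagtaggaacat
SGO1, first site (chr3:20170129-20170157, minus strand): caaagtgctggGATTACTgagccactgtg
SGO1, second site (chr3:20170065-20170093, minus strand): aaatgaataatGATTACTcaaataagatc
Of the 46 genes without this word, 14 were lower, and their median log2 fold change was -0.09. Of all 1072 tested genes with the word in a 3′ UTR, 376 were lower (35.1%), beside 10.6% of all tested genes and 19.3% of those at 10 CPM or more. ACACATC occurs in the 3′ UTR of CENPI alone, which had a log2 fold change of 0.03.

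The rest of the kinetochore and spindle machinery was read from a further list of 87 genes, all of them tested. Of these, 25 were lower (28.7%) and 4 were higher, and the median change was -0.11 on the log2 scale, beside backgrounds of 10.6% lower over all tested genes and 19.3% at 10 CPM or more. The shares of its smaller groups rest on few genes. Those of the central spindle and cytokinesis list (21.4%) and of the G2 and M phase regulators (14.3%) lie near these backgrounds. Among 14 other inner kinetochore genes and loaders of CENPA, 4 were lower, with CENPS (-0.31) and CENPP (-0.27) ahead. CENPW was higher at 0.99 (SE 0.12, adjusted p = 0.0002, edgeR), opposite to CENPH. Its mean level was low, at 5.48 CPM in control and 10.9 CPM in IGF2BP3 KD libraries. Among 17 other outer kinetochore and checkpoint genes 5 were lower, led by SPDL1 (-0.32), which recruits dynein, and ZWINT (-0.31), a partner of KNL1. Among 35 spindle and centrosome genes 12 were lower, led by HAUS7 (-0.58) of the augmin complex and NDEL1 (-0.51), a dynein regulator, and 2 were higher, TUBG1 (0.31), the gamma-tubulin of microtubule nucleation, and CLASP2 (0.23). Among 14 genes listed under central spindle and cytokinesis 3 were lower, led by PLK2 (-0.60, 8.29 CPM in control) and GTSE1 (-0.39). The list is a loose one, and PLK2 and GTSE1 are not core genes of these steps. RACGAP1, which is one, was higher at 0.30 (SE 0.04, adjusted p = 0.0003, edgeR). RACGAP1 is the partner of KIF23 in centralspindlin, and KIF23 was lower. The 7 regulators of G2 and M phase genes were FOXM1, MYBL2 and the MuvB subunits LIN9, LIN37, LIN52, LIN54 and RBBP4. Of these, only LIN54, the CHR-binding subunit, was called lower (-0.20, adjusted p = 0.020, edgeR). LIN9 (-0.25, SE 0.09) and LIN37 (-0.64, SE 0.81) had estimates further below 0 with a larger SE and were not called. MYBL2 alone lay above 0, at 0.10 (adjusted p = 0.052, edgeR).

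For comparison, the same counts were taken for 3 neighbouring parts of the chromosome cycle. They stand beside 10.6% lower over all tested genes and 19.3% at 10 CPM or more. Of 21 genes of replication licensing and the replicative helicase, which act in G1 and S phase, 17 were lower (81.0%) and 0 higher. The median change was -0.40 on the log2 scale, and MCM6 (-0.72) and GMNN (-0.62), which inhibits licensing, were ahead. Of 13 genes of cohesin and its loaders, 9 were lower (69.2%), with PDS5B (-0.41) and SMC1A (-0.30) ahead, STAG2 was higher (0.14), and the median was -0.17. Of 17 genes of the anaphase-promoting complex and its regulators, 6 were lower (35.3%), with ANAPC1 (-0.52) and CDC23 (-0.33) ahead. UBE2S (-0.26) and FBXO5 (-0.26), which are not subunits, were among the lower genes. ANAPC13 was higher (0.36), and the median of this list was -0.05. The median of the 48 kinetochore, spindle and kinase genes, -0.09, lay nearer 0 than those of replication licensing and cohesin. No test was made between these lists.

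**Figure D4:**
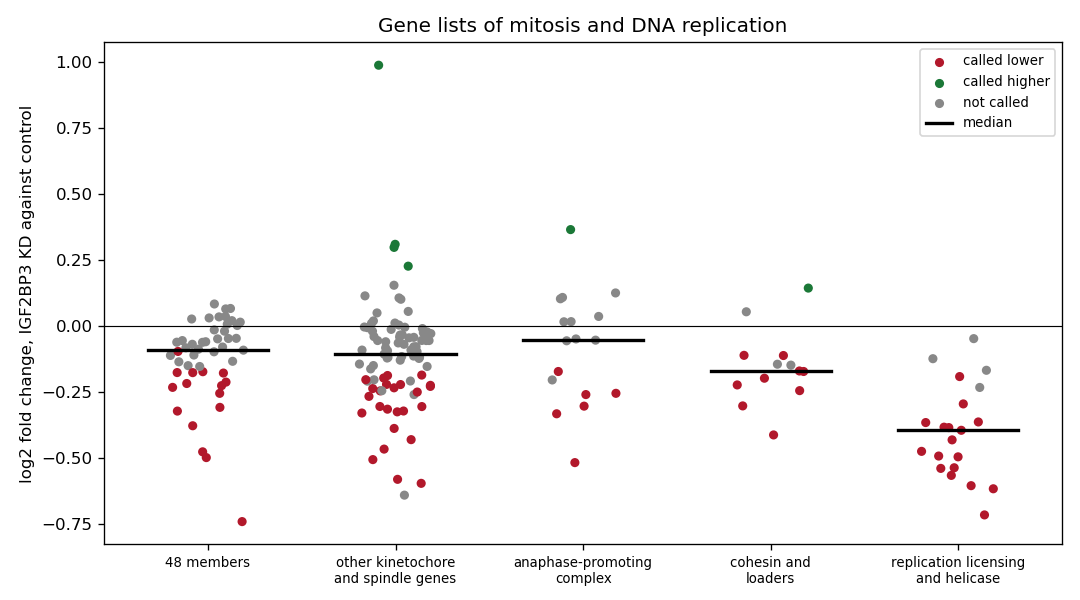
Log2 fold change (vertical axis, IGF2BP3 KD against control) of each gene in the 48 members, the 87 other kinetochore and spindle genes and 3 comparison lists (horizontal axis); each point is 1 gene, red where called lower, green where called higher and grey where not called, and the horizontal bar is the median of the list. The medians are -0.09, -0.11, -0.05, -0.17 and -0.40 from left to right.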

How the data were processed

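Polyadenylated RNA of 6 OE-19 libraries was prepared with a directional kit. The authors' processing notes name fastp, HISAT2 and featureCounts on hg38; versions, annotation and strand setting are not given in the sources used here. The deposited values are raw read counts per gene, without normalization. Of 60612 entries, 132 repeated ones were left out. Genes were filtered with filterByExpr (minimum count 10, total 15), scaled by TMM and tested with edgeR 4.0.16 in R 4.3.3 (quasi-likelihood, unpaired, 19778 genes, Benjamini-Hochberg over all of them). Genes were called at an adjusted p under 0.05. CPM are TMM-scaled; intervals are 95% intervals of the fit; levels per kb use union exons of GENCODE v44. The fit was tested on simulated counts with known fold changes.

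The members and gene lists were chosen with earlier results of these data known. All 48 members are named; in each further list the 2 called genes of largest absolute log2 fold change in each direction are named. Libraries were grouped by their titles. Alternatives were DESeq2 1.42.0, RLE size factors, 2 other count filters, a replicate block, an adjusted p under 0.01 and leaving out each library. The libraries held 53424071 to 69989087 reads.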

Additional observations from a re-analysis of the deposited data

How the results depend on the processing

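All 16 members called lower were also called with DESeq2 (19 members lower), with RLE size factors (18), without a low-count filter (16), with at least 10 counts in every library (18) and in the fit with the replicate block (17); 0 members were higher under any of them. UBE2C and KIFC1 were called lower with DESeq2, with RLE size factors and with at least 10 counts in every library, KIFC1 also with the block, and CDC20 with DESeq2. The labels do not say that the replicate numbers pair the libraries. Deviations of same-numbered libraries correlated at -0.0019, -0.0736 and -0.0252 over 11571 genes. Such values cannot exclude that cultures were handled in pairs. The block changed no call of a member other than KIFC1. At an adjusted p under 0.01, 11 members, and 1314 genes lower and 1098 higher in all, were called.

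When 1 library was left out, 12 to 18 members were lower, with the fewest without control library 3, and 11 of the 16 were called in all 6 fits. The exceptions were KIF20A, BIRC5, BUB1, NUF2 and MKI67, all within the same direction. The sign of some members near 0 turned. HMMR was at -0.00046 with DESeq2 and -0.0031 without a filter, and SPC25 at -0.0058 with DESeq2, -0.0026 with RLE size factors, -0.0078 without a filter and -0.0028 with at least 10 counts in every library. Over the 6 fits without 1 library the log2 fold change ran from -0.12 to 0.021 for CENPE, -0.062 to 0.044 for KIF20B, -0.026 to 0.085 for CENPI, -0.077 to 0.16 for CENPK, -0.070 to 0.072 for HMMR, -0.041 to 0.070 for SPC25, -0.013 to 0.042 for KIF11, -0.0034 to 0.045 for ECT2, -0.018 to 0.067 for PTTG1, -0.16 to 0.0028 for CENPM and -0.053 to 0.0036 for KNL1; no direction is read from these, and the cause of the turns was not tested.

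With 3 libraries a group, whose separate origin is not stated, precision is limited by the spread between libraries; the median SE of a member was 0.05 on the log2 scale.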
